A study of Homo sapiens with 4 samples.

Results

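The mitochondrial ribosomal protein genes were taken as the protein-coding genes of the RefSeq GRCh38.p14 annotation whose symbols begin with MRPL or MRPS and a number, on chromosomes 1 to 22 and X. The rule found 77 members among 19974 protein-coding genes. By symbol, 49 belong to the large subunit (MRPL) and 28 to the small subunit (MRPS). BRD8 was mapped by chromatin immunoprecipitation and sequencing (ChIP-seq) in HCT116 and SW480, established human lines labelled as colorectal cancer cells from colon. HCT116 was grown in McCoy's 5A and SW480 in Leibovitz's L-15 medium, both with fetal bovine serum and antibiotics, so line and medium cannot be told apart. The labels name no treatment. The cells were fixed with formaldehyde, and their chromatin was cut with micrococcal nuclease. A single polyclonal antibody to BRD8 was used in both lines, each line gave 1 ChIP library with an input library beside it, and differences between HCT116 and SW480 are therefore without replicates. No expression values are at hand, so the cell type could not be set against markers.

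BRD8 carries a bromodomain, a module that binds acetylated lysine, and belongs to TIP60/NuA4, a histone acetyltransferase complex of active chromatin. The mitochondrial ribosome, or mitoribosome, translates the few messages of the mitochondrial genome, which encode core subunits of the oxidative phosphorylation complexes. All of its proteins are encoded in the nucleus, made on cytosolic ribosomes and imported, while its RNAs come from mitochondrial DNA. The large subunit holds the peptidyl transferase centre and the exit tunnel, and the small subunit holds the decoding centre. Part of its proteins descend from bacterial ribosomal proteins, and the rest are specific to mitochondria.

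Each ChIP library is represented by the authors' peak list. It gives for every peak a summit, a fold enrichment of ChIP signal over the local background, and a −log10 q, where q is the p-value adjusted for multiple testing. The HCT116 list held 22303 peaks and the SW480 list 12874, with median folds of 3.70 and 3.34. The lists give no read totals, but the fold and p of a summit fix its pileup, the number of ChIP fragments that cover it, and its local background on the same scale. Both could be solved in HCT116 for 99.99% of the peaks and in SW480 for 99.98%. The lowest background, which the coverage of a whole library sets, was 3.75 in HCT116 and 4.09 in SW480. A gene was called bound where a summit lay within 1 kb of either annotated end, and its values are those of the peak with the highest fold there.

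BRD8 lay at the ends of most mitoribosomal protein genes in HCT116 and at somewhat over 1 in 2 of them in SW480. In HCT116, 70 of 77 members were bound (90.9%, 95% Wilson interval 82.4 to 95.5), against 44.0% of all protein-coding genes. In SW480, 41 of 77 were bound (53.2%, 42.2 to 64.0), against 22.1%. Both shares lay above those of all protein-coding genes, although the intervals cover counting error only. All 41 members bound in SW480 were also bound in HCT116, so 41 members were bound in both lines (background 20.3%). A further 29 were bound in HCT116 alone (background 23.7%), none in SW480 alone (background 1.81%) and 7 in neither (background 54.2%). Of the HCT116-bound members, 58.6% were also bound in SW480, and of all HCT116-bound protein-coding genes 46.1% were.

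In each subunit most genes were bound in HCT116 and just over 1 in 2 in SW480. In the large subunit, 43 of 49 genes were bound in HCT116 (87.8%, 75.8 to 94.3) and 26 of 49 in SW480 (53.1%, 39.4 to 66.3). In the small subunit, 27 of 28 were bound in HCT116 (96.4%, 82.3 to 99.4) and 15 of 28 in SW480 (53.6%, 35.8 to 70.5). The large subunit's share minus that of the small subunit was -8.67 percentage points in HCT116 (95% Newcombe interval -21.0 to 6.89). In SW480 it was -0.51 points (-22.3 to 21.6). Both intervals include 0 and are wide, so they leave room for a sizeable difference in either direction. MRPS30 and MRPS18A carry small subunit symbols, but their uniform names in RefSeq, mL65 and mL66, place them in the large subunit. Moving them there gave 45 of 51 and 25 of 26 in HCT116, and 27 of 51 and 14 of 26 in SW480.

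**Figure D1:**
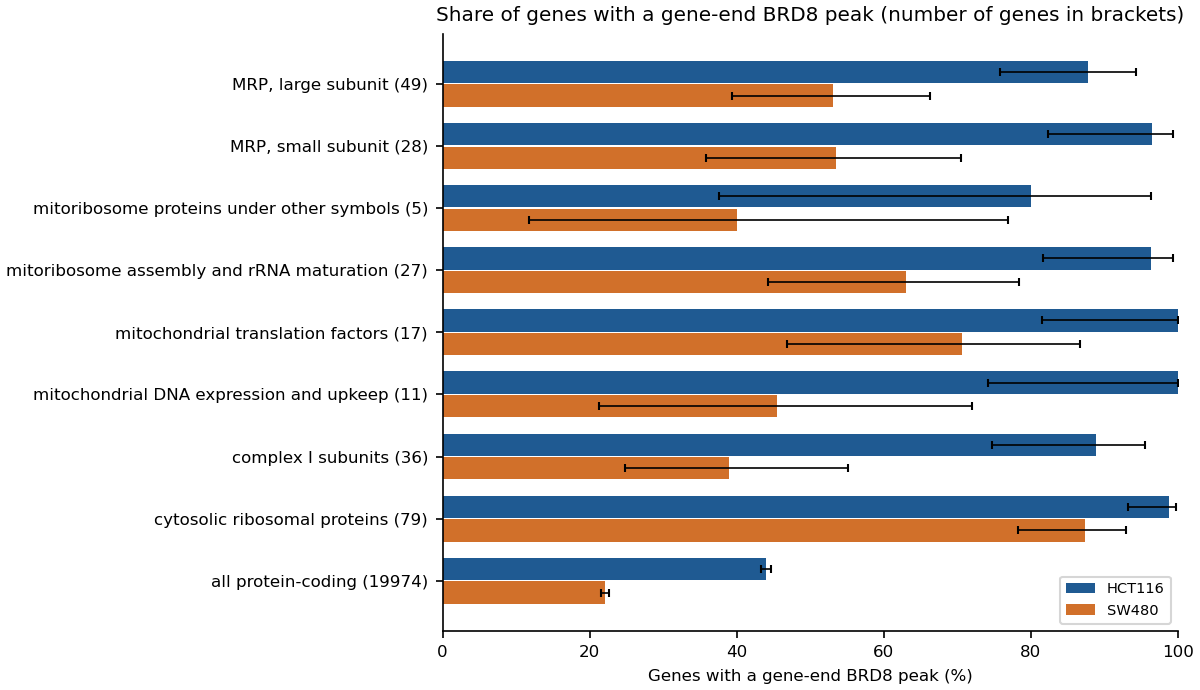
Bars give the percent of genes with a BRD8 summit within 1 kb of either end in HCT116 and SW480, by gene list, and the thin lines are 95% Wilson intervals. The large subunit stands at 87.8% and 53.1% and the small subunit at 96.4% and 53.6%, above all protein-coding genes at 44.0% and 22.1%, while the cytosolic ribosomal protein genes reach 98.7% and 87.3%.

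Fold enrichment at the bound members was higher in HCT116 than in SW480. In HCT116 the median fold over the 70 bound members was 6.55 (2.51 to 19.6), against 4.87 over all bound protein-coding genes. In SW480 the median over 41 members was 3.27 (1.83 to 11.4), against 3.40. Thus 35 of the 70 HCT116-bound members ranked in the top 25% of bound protein-coding genes by fold, whereas 9 of the 41 did in SW480. The large subunit had median folds of 6.98 in HCT116 and 3.24 in SW480. The small subunit had 5.93 and 3.34. Of the 100 protein-coding genes with the highest fold, MRPL18, MRPL42 and MRPS18B were among those of HCT116, and MRPS18B alone of the members was among those of SW480.

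The strongest peaks of the large subunit were at MRPL18, MRPL42 and MRPL48. Their promoters are printed from position -150 to 30, with the first transcribed base as position 1 and no position 0. The sequences come from the RefSeq promoter table of GRCh38.p14, all on the plus strand, at chr6:159789662-159789841, chr12:93467364-93467543 and chr11:73787724-73787903. They are shown because these genes had the highest folds of the subunit, and because each holds different letters near its start site. Capitals mark letters searched for on both strands: CCAAT of NF-Y and GGGCGG of SP/KLF factors in MRPL18, AAGATGGC of YY1 in MRPL42, and CCGGAAG of ETS factors, here on the opposite strand, in MRPL48. The match at MRPL42 runs from position 9 to 16 and the match at MRPL48 from -63 to -57.
MRPL18: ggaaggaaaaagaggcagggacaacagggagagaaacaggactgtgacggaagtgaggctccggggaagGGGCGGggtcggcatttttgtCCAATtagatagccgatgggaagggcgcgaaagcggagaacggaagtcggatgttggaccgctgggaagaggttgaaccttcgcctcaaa
MRPL42: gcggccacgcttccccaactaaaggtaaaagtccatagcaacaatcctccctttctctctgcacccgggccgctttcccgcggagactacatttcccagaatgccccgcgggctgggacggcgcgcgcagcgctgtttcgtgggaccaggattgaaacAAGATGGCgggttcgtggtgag
MRPL48: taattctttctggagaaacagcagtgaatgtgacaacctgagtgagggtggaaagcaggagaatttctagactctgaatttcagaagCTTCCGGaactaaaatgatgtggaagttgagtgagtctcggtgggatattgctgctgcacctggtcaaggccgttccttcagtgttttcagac

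MRPL18, a large subunit protein with a bacterial homologue, had the highest fold of all members in HCT116. Its fold of 19.6 in HCT116 stood beside 3.85 in SW480, with −log10 q of 89.5 and 11.4. The pileup was 95 fragments over a background of 3.91 in HCT116, and 48 over 11.7 in SW480. The summits lay 269 and 273 bp after the start site, almost at the same place, but the HCT116 peak was 6726 bp wide and the SW480 peak 295 bp. TCP1, a subunit of the cytosolic chaperonin, has a gene end within 1 kb of both summits.

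MRPL42, which is specific to mitochondria, had the highest −log10 q of all members in HCT116 and was not bound in SW480. It had a fold of 16.4 in HCT116, with a −log10 q of 100.1 and 119 fragments over a background of 6.31, at 178 bp after the start site. In SW480 it had no gene-end peak, and the nearest summit lay 25316 bp upstream of its start site. A q threshold ends each list, so a missing peak does not show that the protein was absent.

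MRPL48, also specific to mitochondria, was alike in pileup and unlike in fold. In HCT116 88 fragments covered the summit and in SW480 93 did, while the background was 5.16 and 18.2. The fold was 14.4 in HCT116 and 4.91 in SW480. The summits lay 113 and 81 bp after the start site, and the peaks were broad in both lines, at 2925 and 2295 bp. The same held for MRPL17, a conserved protein beside the exit tunnel, with 77 and 72 fragments, backgrounds of 5.07 and 22.5, and folds of 12.9 and 3.11.

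MRPL3 and MRPL4, conserved proteins that reach towards the peptidyl transferase centre and the tunnel, differed in SW480. MRPL3 had a fold of 12.6 in HCT116 (84 fragments over 5.74) and 5.61 in SW480 (58 over 9.51), among the 5 highest of the subunit there. MRPL4 had a fold of 11.8 in HCT116 (66 fragments over 4.68) and no peak in SW480. MRPL2 and MRPL16, which also belong to the peptidyl transferase region, were bound in HCT116 alone, with folds of 7.27 and 3.23. MRPL27, a further protein of that region, had 116 fragments over a high background of 12.6 in HCT116, and a fold of 8.59. In SW480 it had 38 over 10.5 and a fold of 3.38. MRPL15, another conserved protein, had folds of 10.9 in HCT116 (79 fragments over 6.31) and 2.90 in SW480 (42 over 13.8).

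The highest SW480 folds of the large subunit were at MRPL50, MRPL51, MRPL3, MRPL57 and MRPL48, 4 of which are specific to mitochondria. MRPL50 had a fold of 5.90 in SW480 and 10.5 in HCT116, over backgrounds of 4.09 and 3.75, the lowest that occur in each library. MRPL51 had 5.80 in SW480 and 10.6 in HCT116. MRPL57 had 5.27 in SW480 and 9.41 in HCT116. All 3 have their summits within 1 kb of the end of another gene: ZNF189 at MRPL50, NCAPD2 of the condensin complex at MRPL51, and SKA3 of the outer kinetochore at MRPL57. At MRPL51 the summits lay 925 and 945 bp upstream of its start site, near NCAPD2.

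Of 4 proteins of the ribosome's stalks, all were bound in HCT116 and 3 in SW480. MRPL12, which forms the flexible stalk that recruits translation factors, had folds of 6.45 in HCT116 and 3.01 in SW480. MRPL10, which anchors that stalk, had 5.40 and 3.30. MRPL11 at the stalk base had 3.26 in HCT116 and no peak in SW480. MRPL1, of the opposite stalk, had 7.44 and 3.62. MRPL58, a peptidyl-tRNA hydrolase built into the large subunit, had 3.53 and 3.21, among the closest pairs of values in the 2 lines.

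In the small subunit the highest folds were at MRPS18B, MRPS21 and MRPS27. Their promoters come from the same RefSeq table and build. MRPS18B (chr6:30617690-30617870) and MRPS21 (chr1:150293711-150293890) are on the plus strand, and MRPS27 (chr5:72320211-72320390) is on the minus strand and is printed in its own direction. MRPS18B is printed to position 31 so that its YY1 letters are whole. Capitals mark AAGATGGC of YY1 and GCGCATGC of NRF1, the latter on the opposite strand, in MRPS18B. In MRPS21 they mark CCGGAAG of ETS factors, on the opposite strand at -11 to -5 and at 8 to 14. In MRPS27 they mark AAGATGGC of YY1, CCAAT of NF-Y and GGGCGG of SP/KLF factors, the last on the opposite strand.
MRPS18B: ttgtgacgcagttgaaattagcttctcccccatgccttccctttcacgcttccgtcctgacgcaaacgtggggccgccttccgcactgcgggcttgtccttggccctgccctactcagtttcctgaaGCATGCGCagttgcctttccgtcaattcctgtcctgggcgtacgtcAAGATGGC
MRPS21: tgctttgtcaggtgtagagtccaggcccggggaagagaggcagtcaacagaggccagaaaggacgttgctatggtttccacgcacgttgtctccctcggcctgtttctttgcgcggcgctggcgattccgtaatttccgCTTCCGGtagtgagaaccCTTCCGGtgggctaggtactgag
MRPS27: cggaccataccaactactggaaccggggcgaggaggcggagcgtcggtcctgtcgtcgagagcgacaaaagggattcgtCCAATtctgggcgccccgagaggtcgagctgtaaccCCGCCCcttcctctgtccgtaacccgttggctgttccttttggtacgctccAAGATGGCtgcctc

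MRPS18B, classed as mitochondria-specific by its uniform name mS40, was the member bound most alike in the 2 lines at the upper end. It had 120 fragments in HCT116 and 119 in SW480, over backgrounds of 6.88 and 9.51. The folds were 15.3 and 11.4 in that order, with −log10 q of 97.1 and 80.0. It ranked 83 of 8793 bound protein-coding genes in HCT116 and 10 of 4415 in SW480. The summits lay upstream, at -167 and -175 bp from the start site, and PPP1R10, a regulator of protein phosphatase 1, shares them. No other member had a fold above 5.90 in SW480.

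MRPS21, a conserved small subunit protein, was bound in HCT116 alone, with a fold of 12.4, 90 fragments over 6.31, and a summit 127 bp after the start site. Its nearest SW480 summit lay 70917 bp away. MRPS27, a pentatricopeptide repeat protein, had a fold of 11.8 in HCT116 (59 fragments over 4.07) and 3.66 in SW480 (28 over 6.92). Its summit lay at -419 bp in HCT116 and 160 bp after the start site in SW480. The HCT116 peak was 3053 bp wide and also covered the place of the SW480 summit. PTCD2 has a gene end within 1 kb of both summits, so neither can be assigned to MRPS27 alone.

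The next small subunit genes were bound in both lines, apart from MRPS9. MRPS30 had folds of 9.57 in HCT116 and 3.19 in SW480, with summits 847 and 699 bp after the start site. MRPS25 had 9.41 and 4.19. MRPS33 had 7.74 and 4.73, with 60 and 61 fragments and summits 106 and 105 bp after the start site, so that pileup and place were nearly equal and the fold was not. MRPS9, a conserved protein, had 8.01 in HCT116 and no SW480 peak. MRPS16 and MRPS35, next in SW480, had folds of 4.27 and 3.97 there and 6.92 and 4.98 in HCT116.

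MRPS11 and MRPL46 are neighbours that lie head to head, and they share 1 peak in each line. Its fold was 8.41 in HCT116 (50 fragments over 5.07) and 2.05 in SW480 (33 over 15.6). One summit thus stands for a gene of each subunit, and the bound members had 69 distinct peaks in HCT116 and 40 in SW480.

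The weakest peaks also fell in both subunits. In HCT116 the lowest folds were 2.51 at MRPL41, 2.77 at MRPS18A and 2.96 at MRPS2, none of which was bound in SW480. In SW480 the lowest was 1.83 at MRPS22, with 50 fragments over a background of 26.8. MRPS22 had 2.97 in HCT116, with 19 fragments over 5.74. Its SW480 pileup was 2.63 times that of HCT116, but the summits lay 659 bp apart and the peaks did not overlap, so the values belong to different places.

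**Figure D2:**
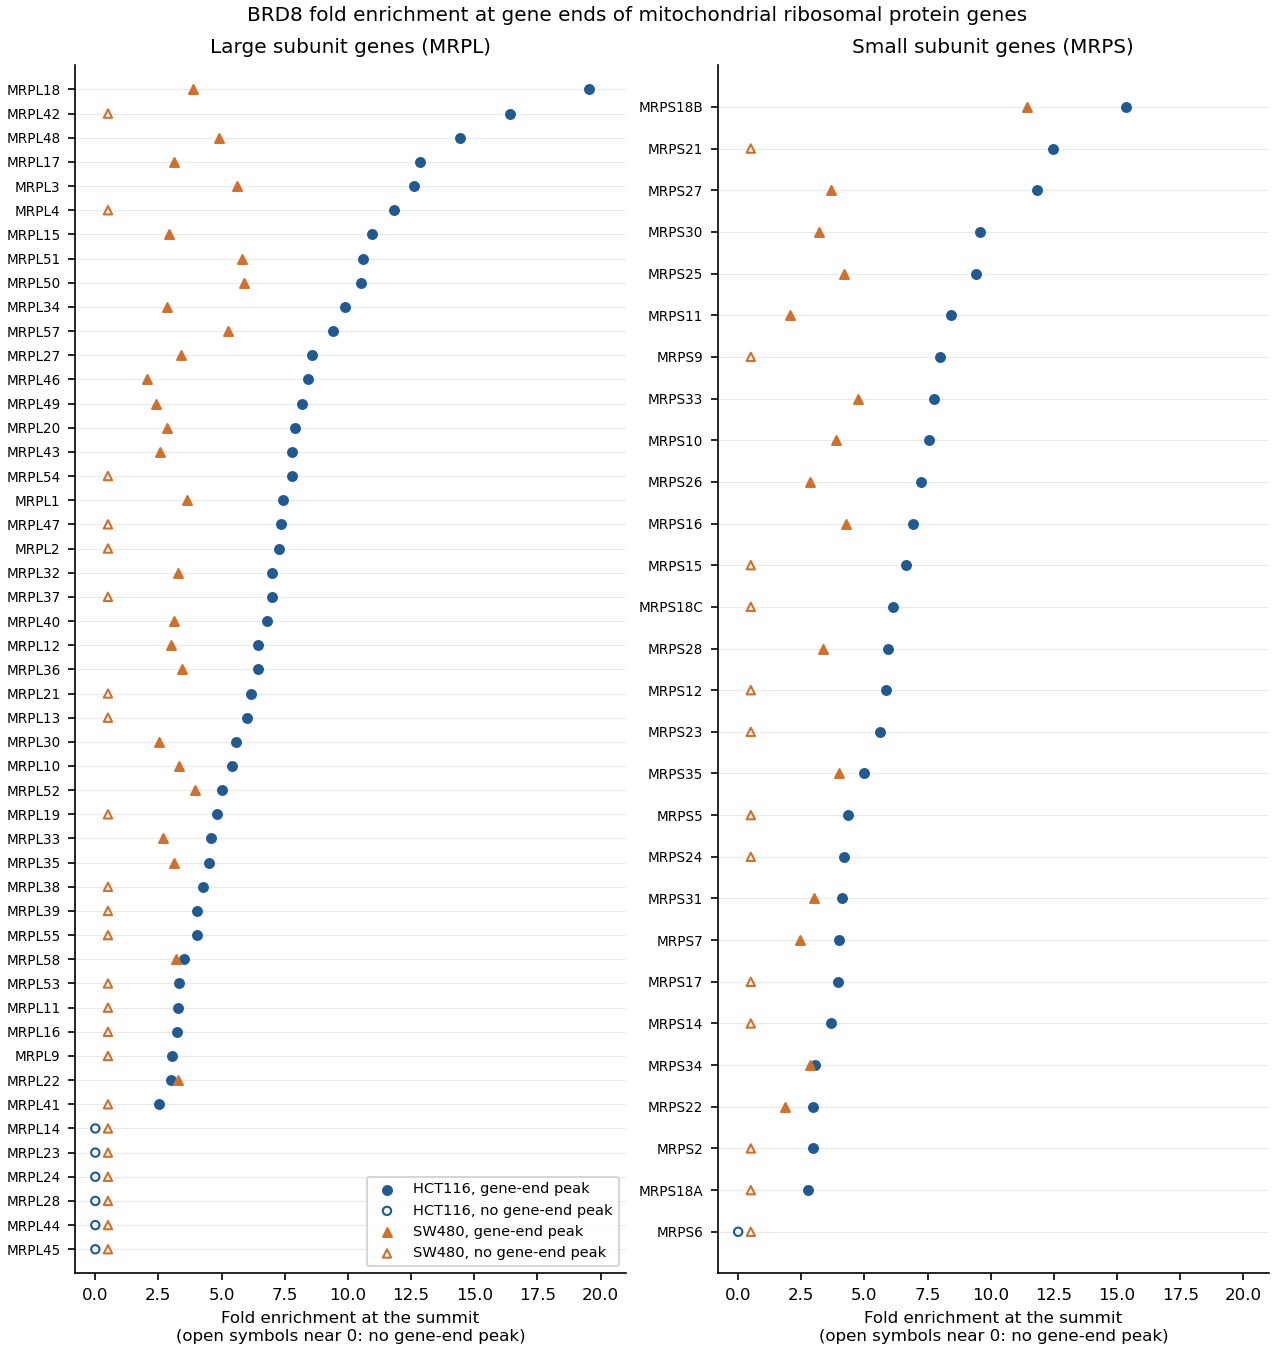
Each row is 1 member, by subunit and ordered by HCT116 fold, with BRD8 fold enrichment at the summit on a linear axis, circles for HCT116 and triangles for SW480, and open symbols near 0 where no gene-end peak was called. MRPL18 leads in HCT116 at 19.6 and MRPS18B leads in SW480 at 11.4, and 29 members have a filled symbol in HCT116 alone.

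The 29 members bound in HCT116 alone comprised 17 large and 12 small subunit genes. By −log10 q the highest of the large subunit were MRPL42 at 100.1, MRPL4 at 47.2, MRPL13 at 33.7, MRPL37 at 26.1 and MRPL2 at 25.7. Those of the small subunit were MRPS21 at 65.2, MRPS23 at 23.6, MRPS9 at 20.8, MRPS15 at 20.6 and MRPS12 at 17.8. MRPS12, a protein of the decoding centre, shares its summit with SARS2, the mitochondrial seryl-tRNA synthetase. These peaks were nonetheless lower as a group. The median HCT116 fold was 4.80 in members bound in HCT116 alone and 7.57 in those bound in both lines, and over all protein-coding genes it was 4.19 and 6.17. The median −log10 q was 14.9 and 27.9.

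Binding in SW480 followed the strength of the HCT116 peak. The HCT116-bound protein-coding genes were divided into 4 equal groups by −log10 q. In the weakest group 2 of 8 members were also bound in SW480, then 5 of 13 and 8 of 15, and in the strongest group 26 of 34 (76.5%). All protein-coding genes gave 17.5%, 31.9%, 52.6% and 82.3% in the same order. MRPL42, MRPL4 and MRPS21 are thus 3 of 8 members of the strongest group without a SW480 peak.

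Among the 41 members bound in both lines, the fold was higher in HCT116 in 40, MRPL22 being the exception at 2.99 and 3.27. Of all protein-coding genes bound in both lines, 7.57% had the higher fold in SW480. SW480 values divided by HCT116 values had medians of 0.486 for fold (0.197 to 1.09), 0.796 for pileup (0.328 to 2.63) and 1.76 for background (0.754 to 4.67), with the highest pileup and background ratios at MRPS22, whose peaks do not overlap. Over all protein-coding genes bound in both lines these ratios were 0.558, 0.897 and 1.71. The SW480 pileup was lower than in HCT116 in 27 members, and in 59.8% of all protein-coding genes bound in both lines. It lay within 20% of that of HCT116 in 16 members, a count that was not made over all protein-coding genes. The SW480 background was higher in 34 members (82.9%), and in 85.5% of all such genes. The shift in background is thus one of the lists as a whole and is not particular to these members. Its part in the difference in fold was not tested.

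**Figure D3:**
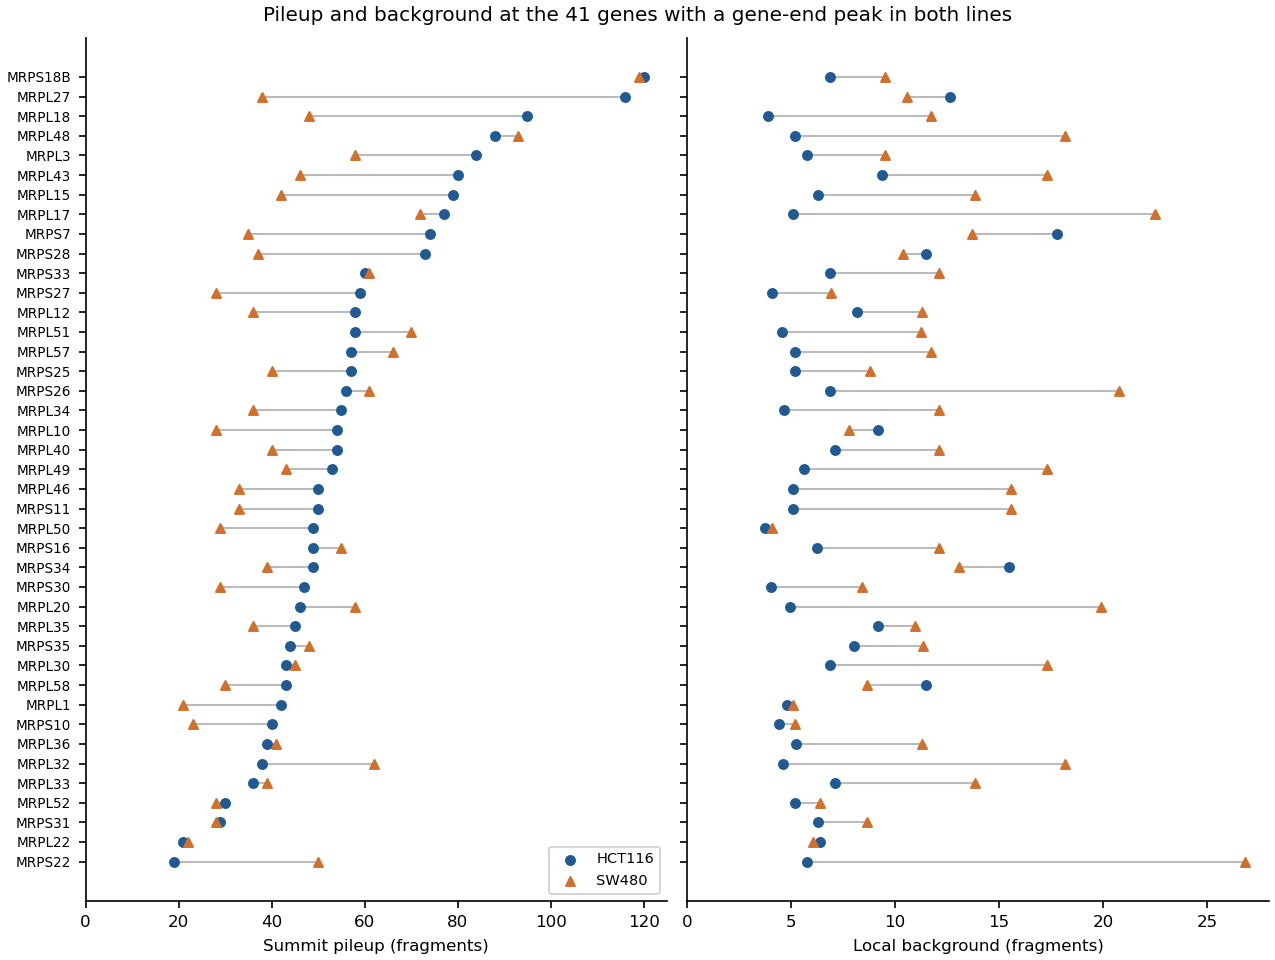
Each row is 1 of the 41 members bound in both lines, with the summit pileup on the left and the local background on the right, both in fragments on linear axes, circles for HCT116 and triangles for SW480 joined by a line. Pileup is higher in HCT116 in 27 members, and background is higher in SW480 in 34.

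The order of the members was kept only in part. Across the 41 genes Spearman's rho between the lines was 0.40 for fold, 0.53 for −log10 q and 0.43 for pileup, and over all protein-coding genes bound in both lines it was 0.36, 0.52 and 0.54. These describe genes of 1 library per line, and genes are not independent replicates. The chosen peaks overlapped in 38 of 41 members, all but MRPL34, MRPL52 and MRPS22. The HCT116 peak overlapped some SW480 peak in 39 of 41, and in 92.8% of all protein-coding genes bound in both lines. The summits of the lines lay a median of 84 bp apart, against 80 bp over all such genes. They were no more than 100 bp apart in 22 members (53.7%), the same share as over all such genes. At MRPL34 the HCT116 summit lay 191 bp after the start site and the SW480 summit near the far end, 13450 bp after it.

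Members were classed from knowledge, by their uniform names, as conserved or mitochondria-specific. Genes of conserved and of mitochondria-specific proteins were bound in HCT116 at 41 of 46 and 29 of 31. In SW480 they were bound at 21 of 46 (45.7%, 32.2 to 59.8) and 20 of 31 (64.5%, 46.9 to 78.9). By symbol, the gap lay in the small subunit, where 5 of 16 conserved genes (31.3%, 14.2 to 55.6) and 10 of 12 mitochondria-specific genes (83.3%, 55.2 to 95.3) were bound in SW480. The 12 include MRPS30, bound in SW480, and MRPS18A, not bound there, whose uniform names place them in the large subunit. The 5 conserved genes were MRPS7, MRPS10, MRPS11, MRPS16 and MRPS28. The 2 mitochondria-specific genes without a SW480 peak were MRPS18A and MRPS23. In the large subunit the counts were 16 of 30 and 10 of 19. Whether the subunits differ in this respect was not tested.

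In neither line was a peak called at the ends of 7 members: MRPL14, MRPL23, MRPL24, MRPL28, MRPL44, MRPL45 and MRPS6. MRPL23 and MRPL24 sit at the tunnel exit, MRPL45 ties the ribosome to the inner membrane, and MRPL44 is related to ribonuclease III. Gene ends miss some start sites, because the outermost annotated end can belong to a longer transcript. The promoters of MRPL24 and MRPL14 are therefore shown, each at the start site of the RefSeq promoter table in GRCh38.p14, on the minus strand, at chr1:156741059-156741238 and chr6:44127279-44127458. Capitals mark ACTACAA of ZNF143, present 2 times in MRPL24, and GGGCGG of SP/KLF factors in MRPL14.
MRPL24: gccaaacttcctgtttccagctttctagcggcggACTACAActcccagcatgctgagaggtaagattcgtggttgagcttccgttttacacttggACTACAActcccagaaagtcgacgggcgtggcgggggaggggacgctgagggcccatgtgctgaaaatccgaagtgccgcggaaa
MRPL14: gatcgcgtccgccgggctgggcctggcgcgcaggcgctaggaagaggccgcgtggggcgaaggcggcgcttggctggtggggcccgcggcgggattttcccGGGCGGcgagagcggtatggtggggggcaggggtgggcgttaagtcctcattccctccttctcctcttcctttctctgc

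Seen from these start sites, MRPL24 was strongly bound in HCT116. Its start site lies 1628 bp inside the annotated end, and a summit of fold 14.1 lay 143 bp after it, with a −log10 q of 73.4 and 94 fragments over 5.74. That fold lies between those of MRPL48 and MRPL17. In SW480 a summit lay 323 bp after the start site, with a fold of 1.81, a −log10 q of 2.00 and 54 fragments over 29.4. MRPL44, with a start site 6609 bp inside its annotated end, had an HCT116 summit 198 bp after it, with a fold of 3.15. MRPL14 had one 958 bp after its start site, with a fold of 4.75.

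The remaining members had no summit close to their ends. For MRPS6 the nearest lay 2703 bp inside the gene in HCT116, with a fold of 3.10, and 2726 bp inside in SW480, with a fold of 4.41. The nearest HCT116 summits lay 31519 bp from MRPL28, 28424 bp from MRPL45 and 174803 bp from MRPL23. For the 36 members unbound in SW480, the nearest summit lay a median of 55143 bp from a gene end, and in 3 of them within 5 kb. Most of these members thus had no summit anywhere near the window. Counted at the start site alone, in the 69 members with an entry in the promoter table, 65 were bound in HCT116 (94.2%, against 45.5% of all protein-coding genes with an entry) and 37 in SW480 (53.6%, against 23.5%).

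The BRD8 peaks lay at the 5′ end, on either side of the start site, with most summits downstream of it. Strand and start site were known for 69 members, and 61 of 63 bound ones in HCT116 (96.8%) and 36 of 37 in SW480 (97.3%) had the peak at the 5′ end. All bound protein-coding genes gave 94.7% and 95.3%. For peaks at the 5′ end, the median summit lay 113 bp after the start site in HCT116 and 97 bp after it in SW480, and 36 and 67 bp after it for all protein-coding genes. Downstream summits numbered 39 of 61 in HCT116 (63.9%, against 50.9% of all) and 21 of 36 in SW480 (58.3%, against 51.0%). Summits between 50 and 250 bp after the start site made up 33 of 61 members in HCT116 (54.1%), against 29.9% of all. In SW480 they made up 16 of 36 (44.4%), against 27.9%. The bases from 100 to 200 bp after the start site alone held 26 of 60 HCT116 summits within 1 kb of it (43.3%), and the 100 bp just upstream held 1. All protein-coding genes had the same shape with a lower top, at 21.6% from 100 to 200 bp after the start site.

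**Figure D4:**
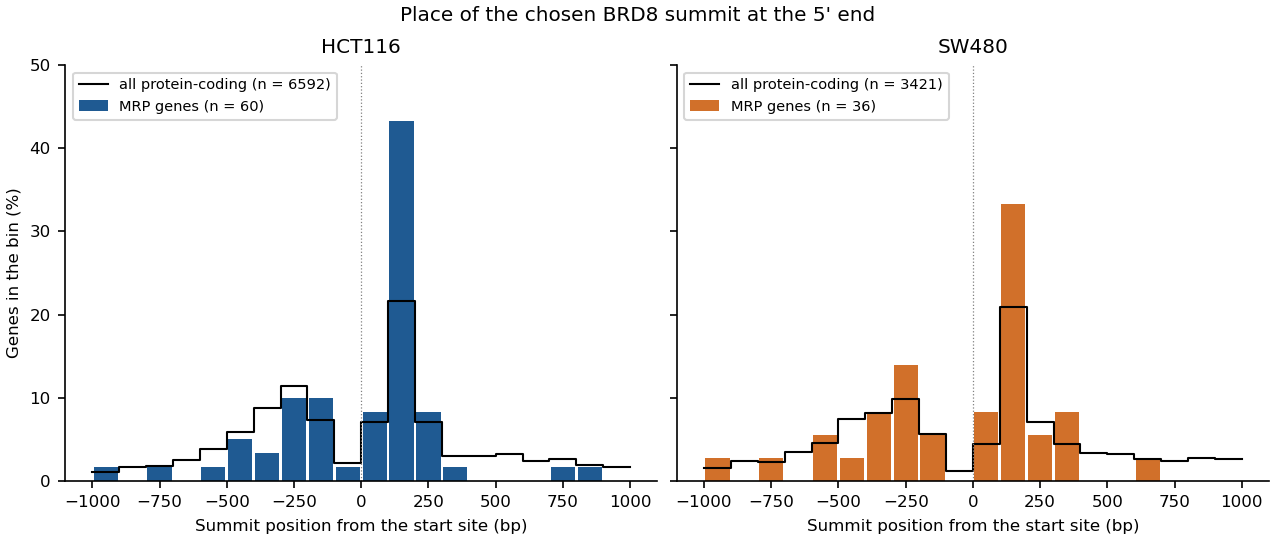
Bars give the percent of mitoribosomal members and the black outline the percent of all protein-coding genes in each 100 bp bin of distance from the start site, for 5′ end summits within 1 kb, upstream at left and downstream at right. The bin from 100 to 200 bp downstream holds 43.3% of members in HCT116 and 33.3% in SW480, against 21.6% and 20.9% of all protein-coding genes, which show the same dip just upstream of the start site.

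Another gene end lay near many of the summits. The end of another protein-coding gene lay within 1 kb of the summit in 33 of 70 bound members in HCT116 (47.1%) and in 20 of 41 in SW480 (48.8%), against 31.98% and 34.1% of all bound protein-coding genes. Some partners belong to mitochondria as well. MRPL36 and MRPL47 lie beside NDUFS6 and NDUFB5 of respiratory complex I, and MRPL43 lies beside TWNK, the mitochondrial DNA helicase. Others do not: MRPL49 lies beside FAU, which encodes a cytosolic ribosomal protein, MRPL32 beside the proteasome gene PSMA2 and MRPL40 beside HIRA, a histone chaperone. Starts and far ends of the neighbours were both counted. One summit cannot be assigned to either gene of such a pair.

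The place of the summit differed with the neighbour, in members and over all protein-coding genes. In members with another gene end at the summit, the median place in HCT116 was -81 bp, and 13 of 27 summits lay downstream of the start site (48.1%). All such protein-coding genes gave -161.5 bp and 44.5%. In members without one it was 134.5 bp, and 26 of 34 lay downstream (76.5%), against 76 bp and 53.8% of all protein-coding genes without one. SW480 members gave -163 bp with 8 of 18 downstream (44.4%), and 109.5 bp with 13 of 18 (72.2%). All protein-coding genes in SW480 gave -176 bp with 44.5%, and 100.5 bp with 54.3%. Members without another coding gene end nearby, judged at the summit where bound and at both gene ends where not, were bound in 37 of 40 cases in HCT116 (92.5%, against 39.5% of all protein-coding genes without one). In SW480 they were bound in 21 of 38 (55.3%, against 19.8%).

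Peaks of the members were broad in HCT116. Their median width was 1641.5 bp (324 to 6726), against 1106 bp for all bound protein-coding genes, and 53 of 70 were at least 1000 bp wide (75.7%, against 54.7%). In SW480 the median was 537 bp (234 to 2295), against 536 bp. There 9 of 41 reached 1000 bp (21.95%), close to the 20.3% of all bound protein-coding genes. Across members width went with fold, with Spearman's rho of 0.61 in HCT116 and 0.45 in SW480. Over all bound protein-coding genes it was 0.62 and 0.31. Width and fold come from the same library and the same peak.

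Local background varied among the members by chromosome. The 7 HCT116-bound members of chromosome 17 had a median background of 11.5, against 6.31 over all bound members, and a median fold of 5.40. The 3 members of chromosome 8 also had a median background of 11.5, and MRPS34, the 1 bound member of chromosome 16, had 15.5. Of the 8 members on chromosome 17, 7 were bound in HCT116 and 5 in SW480. Chromosome 1 also has 8 members, of which 7 were bound in HCT116 and 1, MRPL20, in SW480. Shares and backgrounds of all protein-coding genes were not worked out by chromosome. These values therefore do not tell a trait of the members from one of the chromosome. MRPS7 on chromosome 17 had the highest background of the set in HCT116, at 17.8, with 74 fragments and a fold of 3.99. Copy number was not measured here, and its part in these backgrounds and folds was not tested.

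The promoters of the members were searched for 10 short motifs in windows of 300 bases, from 250 before to 50 after the start site, on both strands. An entry was found for 69 of 77 members, and 15812 protein-coding genes served as the comparison. MRPL2, MRPL10, MRPL13, MRPL15, MRPL21, MRPL23, MRPL35 and MRPS28 had none. AAGATGGC, the core of the YY1 motif, was in 20 of 69 members (29.0%, 19.6 to 40.6), against 3.91% of all promoters and 6.57% of those of HCT116-bound genes. CCGGAAG, the core bound by ETS factors such as GABP, was in 29 (42.0%, 31.1 to 53.8), against 14.2% and 23.1%. GCGCATGC of NRF1, a regulator of mitochondrial genes, was in 6 (8.70%), against 4.26% and 6.34%. At least 1 of these 3 was in 42 of 69 members (60.9%), against 20.3% of all promoters.

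Most YY1 matches lay in one place and one direction. Of 21 matches, 15 lay on the sense strand after the start site, with their first base from position 7 to 36, as in MRPL42, MRPS18B and MRPS27. Such a match was in 21.7% of members, against 2.18% of all promoters and 3.80% of those of HCT116-bound genes. Among promoters that hold YY1 letters at all, it was in 15 of 20 members. The same place held in 345 of 618 of all such promoters and in 279 of 482 of the HCT116-bound ones. It is thus common to these letters and not particular to the members. ETS letters between -60 and 50 were in 24 members (34.8%), against 8.78% and 14.6%. Both subunits held them: YY1 letters were in 12 of 42 large and 8 of 27 small subunit promoters, and ETS letters in 17 and 12. YY1 and GABP are both known as regulators of nuclear genes for mitochondrial proteins.

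The shares of the other letters were as follows. GGGCGG of SP/KLF factors was in 42 members (60.9%), against 58.5% of all promoters and 72.3% of HCT116-bound ones. CCAAT of NF-Y was in 20 (29.0%), against 36.3%. CACGTG, the E-box of MYC and USF factors, was in 6 (8.70%), against 8.87%, and ACTACAA of ZNF143 was also in 6 (8.70%, 4.05 to 17.7), against 3.15% and 4.01%. TATAAA, the TATA box, was in 2 (2.90%, 0.80 to 9.97), against 9.64% of all promoters and 5.12% of HCT116-bound ones. CTCGCGAG of ZBTB33 was in 1 (1.45%, against 1.53%), and TGACGTCA, the cyclic AMP response element, was in none of 69 (against 2.59%). The median GC content was 60.3%, against 62.7% of all promoters. A match is a string of letters and not a measured site.

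**Figure D5:**
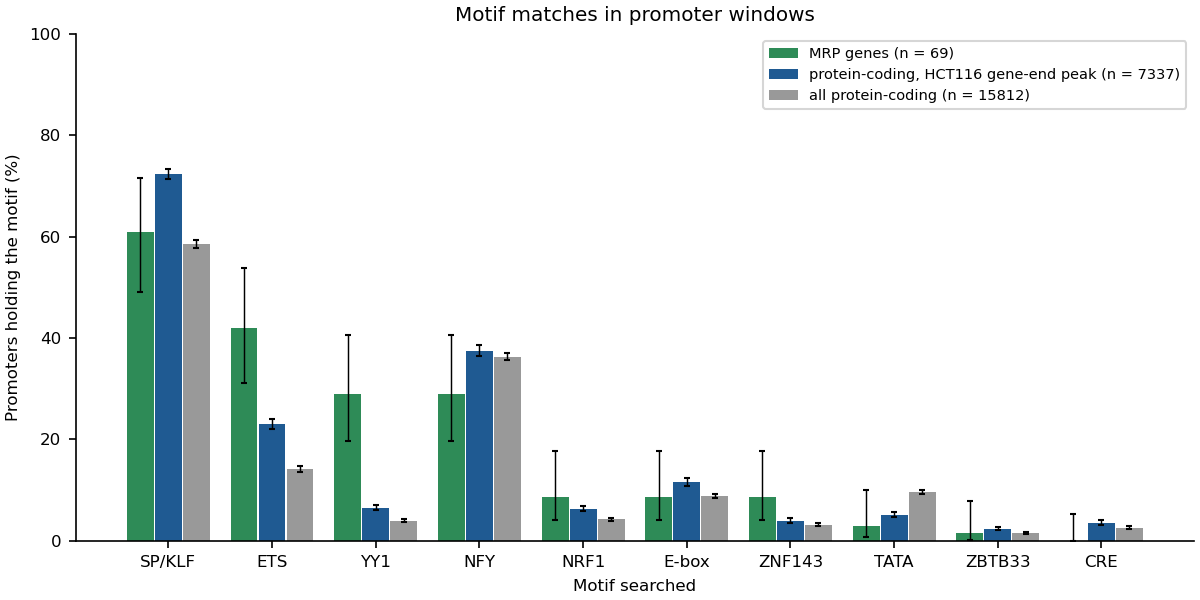
Bars give the percent of promoters that hold each of 10 motifs in 300 bases around the start site, for mitoribosomal members, HCT116-bound and all protein-coding genes, and the thin lines are 95% Wilson intervals. Members stand above both in the ETS motif at 42.0% and the YY1 motif at 29.0%. In the TATA box they stand at 2.90%, with an interval that includes the 9.64% of all promoters.

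Members were bound in HCT116 with or without these letters. With YY1 letters, 19 of 20 were bound in HCT116 and 13 of 20 in SW480, and without them 44 and 24 of 49. With ETS letters, 28 of 29 and 18 of 29 were bound, and without them 35 and 19 of 40. Among all protein-coding genes 75.4% and 40.8% were bound with ETS letters, and 41.6% and 21.1% without. For all protein-coding genes the shares with YY1 letters were 78.0% in HCT116 and 43.9% in SW480, and without them 45.1% and 23.1%. CCAAT ran the other way in SW480, where 7 of 20 members with it and 30 of 49 without it were bound. Among all protein-coding genes those shares were 25.7% and 22.9%. GGGCGG ran the other way in both lines. With it 36 of 42 members were bound in HCT116 and 20 of 42 in SW480, and without it 27 and 17 of 27. Binding was counted here at gene ends, while the letters were searched at start sites. MRPL14, MRPL24 and MRPL44 hold GGGCGG and count as unbound, though each had an HCT116 summit within 1 kb of its start site. At the start site alone, MRPS34, which also holds it, was lost in HCT116. In SW480 MRPL24 was gained there and MRPL34, also with GGGCGG, was lost. For all protein-coding genes the shares with GGGCGG were 57.4% in HCT116 and 28.5% in SW480, and without it 30.9% and 17.5%.

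Genes that act with the mitoribosome were also bound, to different extents by list. Of 5 mitoribosomal proteins with other symbols, 4 were bound in HCT116 and 2 in SW480. PTCD3, a small subunit protein, had folds of 9.93 and 3.41, CHCHD1 had 4.49 and 3.14, and DAP3, which binds GTP in the small subunit, had no peak in either line. Of 27 assembly and ribosomal RNA maturation factors, 26 were bound in HCT116 (96.3%) and 17 in SW480 (63.0%). Their median folds were 5.75 and 3.38, the latter close to that of all bound protein-coding genes. NSUN4, a methyltransferase of the small subunit RNA, had 13.9 in HCT116 alone. NGRN had 11.5 and 2.71, RBFA, a small subunit assembly factor, had 11.1 and 5.11, and METTL15, another methyltransferase of that RNA, had 8.84 and 5.01.

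All 17 mitochondrial translation factors were bound in HCT116 (against 44.0% of all protein-coding genes) and 12 in SW480 (70.6%, against 22.1%). Their median folds were 5.72 and 2.97, against 4.87 and 3.40 over all bound protein-coding genes. LRPPRC, which stabilises mitochondrial messenger RNAs, led in both lines with 12.7 and 5.78. GUF1, an elongation factor, had 12.3 and 2.47, and MTRFR, which rescues stalled ribosomes, had 7.39 and 4.34. Of 11 genes of mitochondrial DNA expression and upkeep, 11 were bound in HCT116 and 5 in SW480 (45.5%, against 22.1%). The highest in both lines were MGME1, a nuclease, at 23.9 and 5.26, and SSBP1, the single-strand binding protein, at 11.01 and 3.69.

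By share bound, the mitoribosomal genes lay between those of the cytosolic ribosome and of complex I. Of 79 cytosolic ribosomal protein genes, 78 were bound in HCT116 (98.7%, 93.2 to 99.8) and 69 in SW480 (87.3%, 78.2 to 93.0). Their median folds were 9.39 and 4.18, against 6.55 and 3.27 in the mitoribosomal genes. Of 36 complex I subunit genes, 32 were bound in HCT116 (88.9%, 74.7 to 95.6) and 14 in SW480 (38.9%, 24.8 to 55.1), with median folds of 5.51 and 4.01. The intervals of the mitoribosome and of complex I overlap in both lines. In SW480 those of the 2 kinds of ribosome do not.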

How the data were processed

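BRD8 ChIP-seq peak lists of HCT116 and SW480, 1 ChIP library per line, were analysed. Per the submitters' processing notes, Trimmomatic 0.33, Bowtie2 2.4.1, MACS2 and deepTools were used with GRCh38. How reads were filtered and duplicates treated is not stated in the sources at hand. Each ChIP library has its own deposited list, whose lowest −log10 q fits a q threshold of 0.05. The fold, a ratio of ChIP signal to local background at the summit, the −log10 p-value and the −log10 q-value are the authors' own. The deposited score is the −log10 q multiplied by 10 without its decimals, in 99.8% and 99.98% of peaks. The input libraries entered through the background only.

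Summits were assigned to genes of the RefSeq table of GRCh38.p14 on chromosomes 1 to 22 and X, within 1 kb of either end. Start sites, strands and promoter sequences came from the RefSeq promoter table. Pileup and background were solved by trying whole pileups to a limit of 2999 fragments until the p matched (relative tolerance 0.0001), and the solution was tested on simulated data. Depth and input of a library both bear on its folds, and read totals are unknown. Wilson and Newcombe intervals at 95% cover counting error only. No test across genes was made. The members, gene lists and motifs were chosen with earlier results of these data known. Genes described in full were, per subunit, those of highest fold in each line, those of highest −log10 q in HCT116 alone, the lowest folds and all unbound ones. Python 3.11.15 with pandas 2.3.3, NumPy 2.4.6 and SciPy 1.17.1 was used. Alternatives changed the window, the peak threshold, the number of peaks, the end used, the choice of peak, and the treatment of shared summits.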

Additional observations from a re-analysis of the deposited data

How the results depend on the processing

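Of 121 alternative values, 102 were classed as close to those reported and 19 as moved. A change of sign was not a class of its own, and the sign changes given below count among the 102. The class of close values was wide, as it took in 29 members bound in SW480 against the reported 41. Leaving out members with another coding gene end at the summit lowers every count by construction. It left 37 of 40 members bound in HCT116 (large 21 of 24, small 16 of 16) and 21 of 38 in SW480 (large 13 of 23, small 8 of 15), with 19 bound in both lines and 14 in HCT116 alone. The count bound in SW480 alone became 1 with equal numbers of peaks (MRPL22) and 1 with the start site alone (MRPS34). In the 100 bases around the HCT116 summit, which the promoter window holds for only 7 members, there was 1 match each for the ETS, SP/KLF and E-box letters and 0 for NRF1, YY1, NFY, ZNF143, ZBTB33 and TATA. That search covers too few members to describe the set. At a −log10 q of at least 5, 65 members remained bound in HCT116 (84.4%, against 36.6% of protein-coding genes) and 29 in SW480 (37.7%, against 14.5%). The share of the large subunit minus that of the small, whose intervals include 0, changed sign in 1 of 9 alternatives in HCT116 (2.65 points at the start site alone) and in 5 of 9 in SW480 (from -5.10 to 4.59 points), so its direction was not stable. No paired analysis was possible because each line has 1 ChIP library.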
